A study of Mus musculus with 34 samples.

Results

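The aldehyde dehydrogenases described here are 10 mouse genes, Aldh1a1, Aldh1a2, Aldh1a3, Aldh1b1, Aldh1l2, Aldh2, Aldh3a1, Aldh3a2, Aldh7a1 and Aldh9a1. They were chosen by symbol, with earlier results of these data known. Of these, 7 had a value among the 16562 genes tested in cultured osteosarcoma cells, and 7 among the 12595 genes tested in tumours of the same cells. The 5 members with a value in both sets were Aldh1a1, Aldh1l2, Aldh2, Aldh3a2 and Aldh7a1. Aldh3a1 and Aldh9a1 had values in the cultures alone, Aldh1a2 and Aldh1a3 in the tumours alone, and Aldh1b1 in neither.

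MOSJ-Dkk-1 is a murine osteosarcoma line with a lentiviral CMV promoter driving human Dkk-1, an inhibitor of canonical Wnt signalling, and a red fluorescent protein label. All groups, the controls included, carry both. Cultures were either in the log phase of growth, after 6 days, or under nutritional stress, with 48 h of confluence and no change of medium for 4 days. In each condition, 3 libraries received no morpholino (NT), 3 received scrMo, a control morpholino, and 3 received DkkMo, a morpholino against human Dkk-1, both at 5 µM by the methods. A figure legend of the study gives a higher dose of DkkMo for the log phase comparison. Tumours were grown from the same line, injected between tibia and fibula, in NU/J nude mice (Foxn1-/-, which lack mature T cells), 2 months old at injection, and 4 tumours each came from mice given saline (NT), DRB (doxorubicin), DkkMo or the combination. A tumour library holds RNA of both the injected cells and mouse stroma, and no tumour received scrMo. Human Dkk-1 itself cannot be read from a mouse reference, so the knockdown was not checked here. The titles of 2 stressed NT libraries carry the same number, and nothing tells if they came from 1 culture or 2. No source says whether the 3 libraries of a culture group came from independent cultures, so the p values measure the spread between these libraries, which may be technical.

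Aldehyde dehydrogenases oxidise aldehydes to carboxylic acids with NAD or NADP. Aldh1a1, Aldh1a2 and Aldh1a3 are cytosolic enzymes that turn retinaldehyde into retinoic acid. Aldehyde dehydrogenase activity, which is not that of Aldh1a1 alone, is widely used to sort stem-like and drug-resistant tumour cells, in osteosarcoma among others. Aldh2 is the mitochondrial enzyme of acetaldehyde, Aldh1b1 is a mitochondrial relative that also acts on acetaldehyde and retinaldehyde, Aldh3a1 and Aldh3a2 act on aldehydes from lipids, and Aldh1l2, Aldh7a1 and Aldh9a1 serve folate, amino acid and polyamine metabolism.

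Aldh1a1 lies on chromosome 19 of GRCm38 at chr19:20492715-20643465 on the plus strand, and its closest relative, Aldh1a7, lies next to it at chr19:20692953-20727562 on the minus strand. Their coding sequences were identical at 91.62% of aligned bases, with 100 bases in the longest identical run, whereas the next closest gene of the family, Aldh1a2, was identical to Aldh1a1 at 69.77%. The promoter windows of the pair are shown because reads and start sites of Aldh1a1 have to be told from those of Aldh1a7. The RefSeq (GRCm38.p6) promoter table used here was matched for 5 of the 10 members, with 2 start sites for Aldh1a1. Each line gives the 250 bases before a start, on the strand of the gene, and capitals mark matches to a searched motif.
Aldh1a1, upstream start, chr19:20492333-20492582, plus strand: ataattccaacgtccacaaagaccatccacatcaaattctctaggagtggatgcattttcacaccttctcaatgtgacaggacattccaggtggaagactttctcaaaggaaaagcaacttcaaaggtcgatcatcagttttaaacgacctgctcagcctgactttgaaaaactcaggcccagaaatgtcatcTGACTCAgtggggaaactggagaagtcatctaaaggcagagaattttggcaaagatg
Aldh1a1, downstream start, chr19:20601718-20601967, plus strand: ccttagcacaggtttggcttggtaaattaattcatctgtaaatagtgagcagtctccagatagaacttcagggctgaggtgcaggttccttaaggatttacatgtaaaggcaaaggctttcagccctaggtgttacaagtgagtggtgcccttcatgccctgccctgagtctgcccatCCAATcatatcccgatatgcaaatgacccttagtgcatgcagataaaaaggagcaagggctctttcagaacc
Aldh1a7, chr19:20727557-20727806, minus strand: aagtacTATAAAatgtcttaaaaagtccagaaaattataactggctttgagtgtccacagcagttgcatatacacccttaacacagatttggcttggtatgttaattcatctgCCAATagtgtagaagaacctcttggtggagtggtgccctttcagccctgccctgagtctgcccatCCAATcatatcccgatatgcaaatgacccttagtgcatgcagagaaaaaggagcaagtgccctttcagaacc
In the last 100 bases before the start, the downstream window of Aldh1a1 was identical to that of Aldh1a7 at 94 bases, and the upstream window at 30. The motifs were searched on both strands as AP-1 (TGANTCA), cAMP response element (TGACGTCA), xenobiotic response element (GCGTG), antioxidant response element (TGACNNNGC), CCAAT box (CCAAT), TATA box (TATAAA), GC box (GGGCGG) and C/EBP-ATF element (TGATGNAAN). The upstream window held 1 match, an AP-1 match from -57 to -51, a motif found in 6.75% of 32851 promoter windows of that length. The downstream window held a CCAAT box from -72 to -68, at the same position as in Aldh1a7, and 33.85% of windows hold that motif. The deposited tables have 1 row per gene, so the use of either start cannot be read from them. A match describes the letters in the window and no more.

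A second pair of members sits side by side on chromosome 11, Aldh3a1 at chr11:61207537-61218421 on the plus strand and Aldh3a2 at chr11:61223417-61267464 on the minus strand. Exons of Aldh1l2 overlap those of D10Wsu102e on the opposite strand over 14.1% of their length, those of Aldh7a1 overlap Phax over 5.79%, and those of Aldh2 overlap a predicted gene over 2.54%. Whether counting used strand is not stated, so reads in those stretches could belong to either gene.

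The culture libraries held between 25.9 and 44.8 M reads on the listed genes and the tumour libraries between 26.9 and 125 M reads. Normalised counts, used below, are reads divided by the size factor of the library, and the 2 tables were normalised apart. Of the osteoblast markers, 7 of 10 had a value in the cultures, without Sp7, Ibsp or Dmp1, and 8 of 10 in the tumours, without Ibsp or Bglap. The tumours were far less uniform than the cultures, and in DRB tumours the 10 most abundant genes took 46.7% to 73.55% of reads. The median gene varied between libraries of a group by 5.65% to 11.3% (coefficient of variation) in the cultures and by 72.2% to 109% in the tumours.

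In the cultures Aldh1a1 was the least abundant of the 7 measured members in all 6 groups, and Aldh3a1 the most abundant. Levels between genes were compared as normalised count per kilobase of exon. In log phase NT cultures Aldh3a1 stood at 7314 ± 1129.7 per kilobase (mean ± SD, n = 3). Aldh2 followed at 2314 ± 183, Aldh1l2 at 973 ± 198 and Aldh9a1 at 658 ± 5.70. Below these came Aldh3a2 at 369 ± 21.6, Aldh7a1 at 187 ± 3.54 and Aldh1a1 at 5.81 ± 1.66. The mean level of Aldh3a1 was thus 1260.0 times that of Aldh1a1 in this group, and 9391 times in stressed DkkMo cultures, where the ratio was highest and Aldh1a1 had 2 to 6 reads per library. With the length of the longest transcript in place of all exons, the ratios were 676 and 5038.

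The order was the same in the 3 log phase groups, with no overlap between the libraries of neighbours in it. Under stress, Aldh1l2 fell behind Aldh9a1 in all 3 treatments, and behind Aldh3a2 too in NT cultures. Aldh1l2 and Aldh9a1 were the only neighbours with overlapping libraries, in stressed scrMo cultures. With the longest transcript in place of all exons, Aldh3a2 took the third place in all 3 stressed groups, ahead of Aldh9a1 and Aldh1l2, while Aldh3a1, Aldh2, Aldh7a1 and Aldh1a1 kept theirs in all 6 groups.

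**Figure D1:**
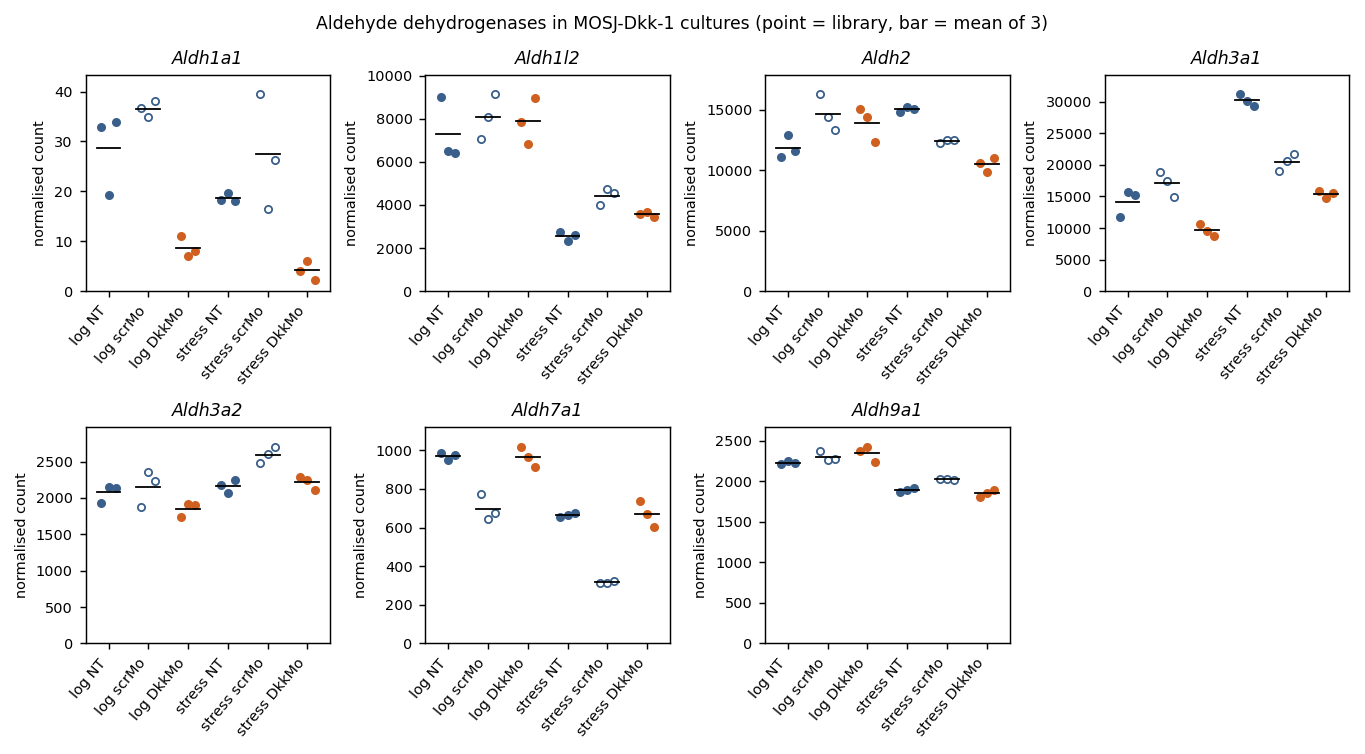
Normalised count (y axis, from 0, a scale for each gene) of the 7 members in the 6 culture groups, with a point per library and a bar at the mean of 3. Aldh1a1 stays under 40 counts in every library while Aldh3a1 runs from 8746 to 31203, and the DkkMo cultures lie lowest for both in each condition.

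Under nutritional stress members were called in both directions, in NT cultures at a share near that of all genes. In NT cultures 5 of the 7 passed the test, 2 higher and 3 lower, at an adjusted p under 0.05, where 65.6% of all genes did, 31.5% higher and 34.1% lower. In scrMo cultures it was 6 of 7, 2 higher and 4 lower, against 58.8% of all genes, 28.0% higher and 30.8% lower. In DkkMo cultures it was also 6 of 7, 2 higher and 4 lower, against 65.6%, 30.4% higher and 35.2% lower. With each library centred on its median, the split of all genes moved to 8422 higher and 3574 lower in NT, 6061 higher and 4025 lower in scrMo and 8594 higher and 3672 lower in DkkMo cultures. The median log2 difference of the members was -0.12, -0.17 and -0.30 in NT, scrMo and DkkMo cultures, beside -0.01 over all genes each time.

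Aldh1l2, the mitochondrial 10-formyltetrahydrofolate dehydrogenase, fell furthest. Its normalised counts were 9014, 6502 and 6393 in log phase NT cultures and 2742, 2324 and 2588 under stress. In scrMo cultures they were 7055, 8087 and 9132 in log phase and 4011, 4729 and 4562 under stress, and in DkkMo cultures 7849, 6806 and 8953 and 3594, 3683 and 3448. In each treatment all 3 stressed libraries lay below all 3 log phase libraries. The mean was 2.86 times lower under stress in NT cultures, 1.82 times in scrMo and 2.20 times in DkkMo cultures. On the deposited log2 scale the differences were -1.41 ± 0.12 (SE, adjusted p = 2.7e-09), -0.82 ± 0.12 (adjusted p = 5.9e-06) and -1.07 ± 0.12 (adjusted p = 1.3e-07) by limma.

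Aldh3a1, an abundant cytosolic enzyme that oxidises aromatic and lipid aldehydes and is known as a crystallin of the cornea, rose under stress. Its counts were 11687, 15708 and 15218 in log phase NT cultures and 31203, 30150.4 and 29286 under stress, a rise of 2.13 times. DkkMo cultures went from 10604, 9607 and 8746 to 15832, 14816 and 15581, which is 1.60 times. In scrMo cultures the counts were 18849, 17413 and 14932 and 19056, 20656 and 21809, close to each other at the edges, with a ratio of means of 1.20. The log2 differences were 1.08 ± 0.10 (SE), adjusted p = 1.1e-08 in NT, 0.66 ± 0.10 (SE), adjusted p = 8.5e-06 in DkkMo and 0.27 ± 0.10 (SE), adjusted p = 0.027 in scrMo cultures. The last of these was lost when log phase scrMo replicate 3 (0.17, adjusted p = 0.15), stress scrMo replicate 2 (0.26, adjusted p = 0.065) or stress scrMo replicate 3 (0.22, adjusted p = 0.11) was left out of the limma fit.

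Aldh7a1, the enzyme of lysine breakdown that oxidises alpha-aminoadipic semialdehyde, fell under stress in all 3 treatments. Its counts were 985, 949 and 975 in log phase NT cultures and 655, 664 and 677 under stress. In scrMo cultures they were 774, 645 and 675 and 311, 315 and 325, the lowest of any group, with no overlap between the conditions. In DkkMo cultures they were 1019, 965 and 915 and 739, 669.9 and 603. The means differed 1.46, 2.20 and 1.44 times in NT, scrMo and DkkMo cultures, and the limma differences were -0.41 ± 0.06 (SE, adjusted p = 3.5e-06), -0.76 ± 0.06 (adjusted p = 2.2e-09) and -0.40 ± 0.06 (adjusted p = 5.1e-06).

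Aldh9a1, which oxidises gamma-aminobutyraldehyde and the trimethylated precursor of carnitine, was the steadiest member. Its 18 library values ran from 1808 to 2428. The log phase means were 2225 ± 19.3, 2304 ± 63.5 and 2347 ± 101 (SD) in NT, scrMo and DkkMo cultures, and the stressed means 1891 ± 26.5, 2023 ± 7.28 and 1851 ± 43.8. Stressed libraries lay below log phase libraries in each treatment, with differences of -0.21 ± 0.04 (SE, adjusted p = 1.9e-04), -0.17 ± 0.04 (adjusted p = 0.0018) and -0.30 ± 0.04 (adjusted p = 2.7e-06) on the limma scale. The difference in NT cultures was no longer called with each library centred on its median (-0.05, adjusted p = 0.28). That in scrMo cultures was -0.10 with that centring (adjusted p = 0.037), and with the replicate block its call was lost (adjusted p = 0.051).

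Aldh2 moved in opposite directions with and without a morpholino. Its counts in NT cultures were 11067, 12899 and 11617 in log phase and 14841, 15241 and 15076 under stress, so that all stressed libraries lay above. In scrMo cultures they went from 16274, 14379 and 13286 to 12224, 12493 and 12492, and in DkkMo cultures from 15019.6, 14374 and 12286 to 10612, 9819 and 10981, with all stressed libraries below. The limma differences were 0.34 ± 0.08 (SE, adjusted p = 7.8e-04) in NT, -0.23 ± 0.08 (adjusted p = 0.016) in scrMo and -0.39 ± 0.08 (adjusted p = 1.9e-04) in DkkMo cultures. The scrMo call was lost with median centring (-0.16, adjusted p = 0.068), with quantile normalisation (-0.09, adjusted p = 0.28) and without log phase scrMo replicate 1 (-0.15, adjusted p = 0.099). Whether the stress difference itself differs between NT and scrMo cultures was not tested.

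Aldh3a2, the fatty aldehyde dehydrogenase of the endoplasmic reticulum, rose under stress in scrMo and DkkMo cultures. In scrMo cultures the counts were 1878, 2355 and 2226 in log phase and 2474, 2610.1 and 2707 under stress (0.25 ± 0.07 (SE), adjusted p = 0.0032, limma). In DkkMo cultures they were 1741, 1912 and 1903 and 2287, 2246 and 2109 (0.23 ± 0.07 (SE), adjusted p = 0.005). In NT cultures the libraries of the 2 conditions overlapped, at 1936, 2149 and 2143 and 2182, 2071 and 2248, and the test was not passed (adjusted p = 0.47). Whether the stress difference itself differs from that in NT cultures was not tested.

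Aldh1a1 did not pass the stress test in any treatment. Its counts in NT cultures were 32.9, 19.2 and 33.9 in log phase and 18.3, 19.7 and 18.0 under stress, which overlap. In DkkMo cultures the stressed libraries, at 4.06, 6.13 and 2.33, lay below those of log phase, at 11.1, 6.95 and 8.14, without overlap. The limma differences were -0.12 ± 0.06 (SE, adjusted p = 0.085) in NT, -0.10 ± 0.06 (adjusted p = 0.13) in scrMo and -0.11 ± 0.06 (adjusted p = 0.098) in DkkMo cultures. With each library centred on its median those in NT and DkkMo cultures turned to 0.04 and 0.05. The transformation compresses genes with few reads, and at 2 to 38 reads per library the call for this gene under stress depended on the scale. On the log2 of the normalised count plus 1, the difference in DkkMo cultures was -0.96 (adjusted p = 0.015) by limma, and it passed there. With quantile normalisation the differences in scrMo and DkkMo cultures were -0.15 (adjusted p = 0.031) and -0.14 (adjusted p = 0.04), also past the threshold. Without log phase NT replicate 2 the NT difference was -0.17 (adjusted p = 0.02), and without stress scrMo replicate 1 the scrMo difference was -0.17 (adjusted p = 0.016), both then past the threshold.

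**Figure D2:**
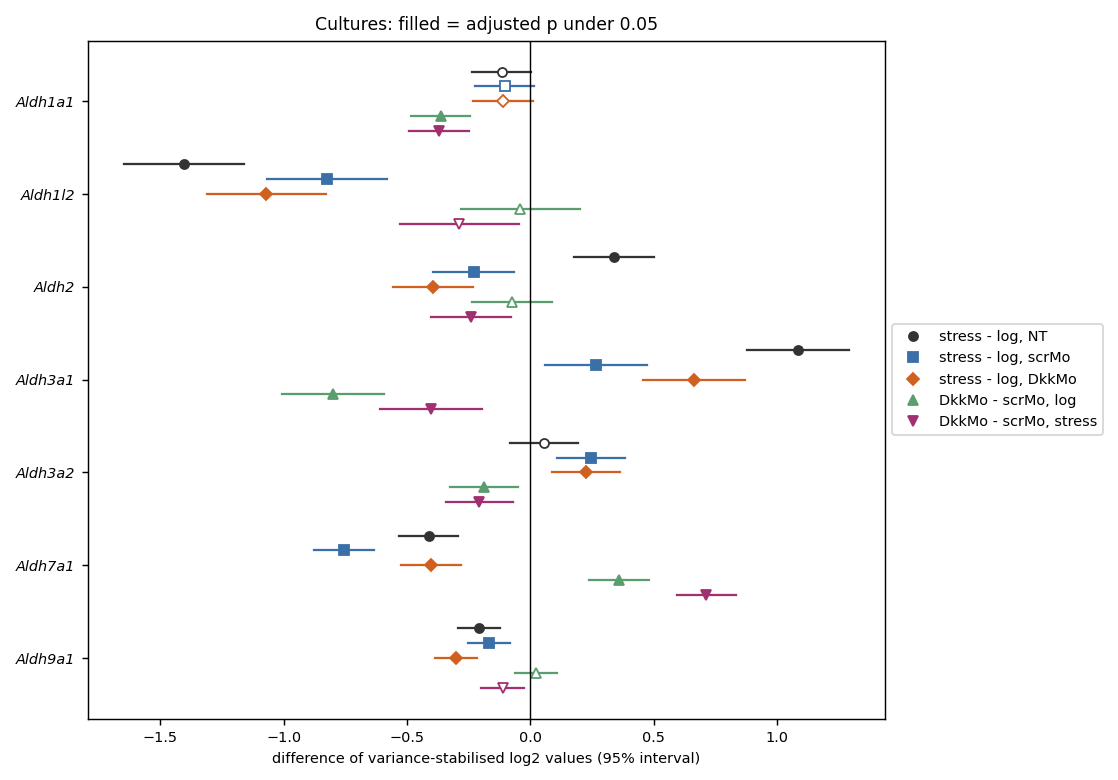
Difference of the deposited log2 values (x axis) with its 95% interval for the 7 members (y axis) in 5 culture comparisons, named in the legend as first group minus second. Filled symbols passed an adjusted p of 0.05: Aldh1l2 lies furthest to the left under stress at -1.41 in NT cultures, and Aldh7a1 is the member with DkkMo above scrMo in both conditions.

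Against scrMo, DkkMo cultures had less Aldh1a1 and Aldh3a1 and more Aldh7a1 in both conditions. In log phase 4 of the 7 members passed the test, 1 higher and 3 lower, where 23.5% of all genes passed, 14.3% higher and 9.2% lower. Under stress it was 5 of 7, 1 higher and 4 lower, where 20.9% passed, 9.97% higher and 10.9% lower. Against NT, 2 of 7 passed in log phase, both lower, where 9.81% of all genes passed, 5.36% higher and 4.46% lower. Under stress it was 4 of 7, 1 higher and 3 lower, where 41.7% passed, 19.0% higher and 22.7% lower. Between scrMo and NT, 2 of 7 passed in log phase, 1 higher and 1 lower, where 26.4% of all genes passed, 11.8% higher and 14.6% lower, and 5 of 7 under stress, 2 higher and 3 lower, where 46.8% passed, 22.1% higher and 24.7% lower. The difference between DkkMo and scrMo itself differed between stress and log phase for 2 of 7, Aldh7a1 and Aldh3a1, both higher, where 22.2% of all genes passed, 8.93% higher and 13.2% lower. With median centring the split of all genes between DkkMo and scrMo was 1568 higher and 3374 lower in log phase and 2308 higher and 1333 lower under stress, that between scrMo and NT 3423 higher and 1750 lower and 2816 higher and 5018 lower, and that of the interaction 3510 higher and 1351 lower. With quantile normalisation it was 1957 higher and 2088 lower between DkkMo and scrMo in log phase and 1879 higher and 1839 lower for the interaction. These comparisons share the DkkMo libraries, and those of scrMo with NT share the controls, so their values are given side by side.

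Aldh3a1 in log phase stood at 10604, 9607 and 8746 counts with DkkMo, below every scrMo and NT library. The mean with DkkMo was 1.77 times lower than with scrMo (-0.80 ± 0.10 (SE), adjusted p = 1.5e-05, limma) and 1.47 times lower than in NT cultures (-0.54 ± 0.10 (SE), adjusted p = 0.0015). Under stress the DkkMo libraries again lay below all others, 1.33 times lower than scrMo (-0.40 ± 0.10 (SE), adjusted p = 0.0064) and 1.96 times lower than NT (-0.96 ± 0.10 (SE), adjusted p = 6.3e-07). The scrMo cultures were themselves lower than NT under stress, at -0.55 ± 0.10 (SE), adjusted p = 1.5e-04, and did not pass in log phase (adjusted p = 0.055).

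Aldh1a1 showed the largest ratio of means between DkkMo and its controls of any member, at the fewest reads. The stressed counts were 4.06, 6.13 and 2.33 with DkkMo and 39.5, 16.5 and 26.2 with scrMo, without overlap, and the log phase counts 11.1, 6.95 and 8.14 and 36.7, 34.9 and 38.1. The means with DkkMo were 4.19 and 6.57 times lower than with scrMo in log phase and under stress, and 3.28 and 4.48 times lower than in NT cultures. The compressed log2 differences against scrMo were -0.36 ± 0.06 (SE, adjusted p = 1.5e-04) and -0.37 ± 0.06 (adjusted p = 1.3e-04), and against NT -0.28 ± 0.06 (adjusted p = 0.0037) and -0.27 ± 0.06 (adjusted p = 8.9e-04), all by limma. Between scrMo and NT the test was not passed in either condition (adjusted p = 0.3 and 0.18), although without stress scrMo replicate 2 the stressed difference was 0.16 (adjusted p = 0.032).

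Aldh7a1 was called against scrMo and not against NT. With DkkMo it was 1.39 times higher than with scrMo in log phase (0.36 ± 0.06 (SE), adjusted p = 1.7e-04, limma) and 2.12 times higher under stress (0.71 ± 0.06 (SE), adjusted p = 6.1e-08). The DkkMo and NT libraries overlapped in both conditions, with 95% intervals of the difference from -0.12 to 0.12 in log phase and -0.12 to 0.13 under stress. The scrMo libraries lay below both, with differences of -0.36 ± 0.06 (SE), adjusted p = 1.2e-04 against NT in log phase and -0.71 ± 0.06 (SE), adjusted p = 1.9e-08 under stress.

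Under stress Aldh2 with DkkMo was 1.44 times lower than NT (-0.51 ± 0.08 (SE), adjusted p = 4.2e-05, limma) and 1.18 times lower than scrMo (-0.24 ± 0.08 (SE), adjusted p = 0.034), and scrMo was lower than NT (-0.27 ± 0.08 (SE), adjusted p = 0.0074). In log phase Aldh2 was higher with scrMo than in NT cultures (0.30 ± 0.08 (SE), adjusted p = 0.0084), a call lost with a model of the compared groups alone (adjusted p = 0.053) and with the replicate block (adjusted p = 0.067). Stressed Aldh1l2 was higher than NT with DkkMo (0.45 ± 0.12 (SE), adjusted p = 0.0045) and with scrMo (0.73 ± 0.12 (SE), adjusted p = 4.3e-05), and DkkMo against scrMo did not pass (adjusted p = 0.087). Aldh3a2 with DkkMo was below scrMo in log phase, where the libraries overlapped (-0.19 ± 0.07 (SE), adjusted p = 0.045), and under stress (-0.21 ± 0.07 (SE), adjusted p = 0.03), and stressed scrMo lay above NT (0.23 ± 0.07 (SE), adjusted p = 0.0066).

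The calls of Aldh2 and Aldh3a2 between DkkMo and scrMo lay near the threshold, and most fits with 1 library fewer lost them. Leaving out 1 library at a time ended that of Aldh3a2 in log phase in 5 of 6 cases, which were DkkMo replicates 1, 2 and 3 and scrMo replicates 2 and 3, with differences of -0.27 to -0.13 over the 6. It ended that of Aldh3a2 under stress in 4 of 6 cases, DkkMo and scrMo replicates 2 and 3, with differences of -0.24 to -0.18. It ended that of Aldh2 under stress in 5 of 6 cases, DkkMo replicates 1 and 2 and scrMo replicates 1, 2 and 3, with differences of -0.27 to -0.20. Over 8 other settings the adjusted p by limma ran from 2.3e-04 to 0.059 for stressed Aldh2. It ran from 9.0e-04 to 0.068 for stressed Aldh3a2 and from 0.0077 to 0.26 for Aldh3a2 in log phase. The stressed call of Aldh2 between scrMo and NT was also lost with quantile normalisation (-0.04, adjusted p = 0.72, limma). Aldh9a1 passed in none of these morpholino comparisons, with adjusted p values by limma of 0.74 and 0.059 against scrMo.

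In the tumours Aldh1a1 was the most abundant measured member in NT and DRB mice. In DkkMo and combination mice it was the fifth of 7. Per kilobase it stood at 623 ± 320.0 in NT, 1729.8 ± 1109.6 in DRB, 116 ± 23.8 in DkkMo and 85.2 ± 18.3 in combination tumours (mean ± SD, n = 4). Aldh7a1 was first in DkkMo tumours at 565 ± 576 and in combination tumours at 344 ± 194. The SD of most members was near or above the mean, and in NT and DRB tumours the libraries of all 6 pairs of neighbours in the order overlapped, so the order there is no more than one of means. In DkkMo tumours 4 of 6 such pairs overlapped and in combination tumours 5 of 6, Aldh7a1 with the next member in both. With the length of the longest transcript, Aldh1a1 was still first in NT and DRB tumours and stood ahead of Aldh1a2 in the other 2 groups, and Aldh1a3 came before Aldh7a1 in combination tumours.

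**Figure D3:**
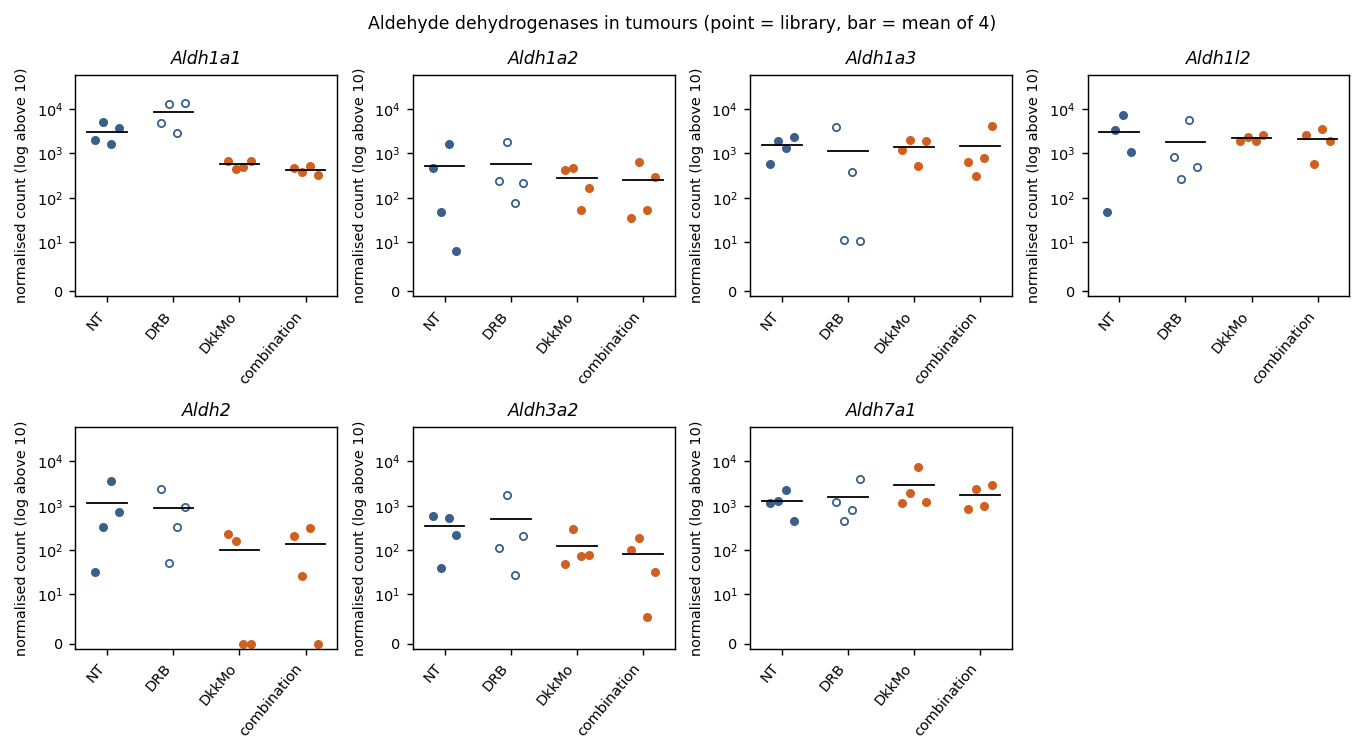
Normalised count (y axis, linear to 10 and log above) of the 7 members in the 4 tumour groups, with a point per library and a bar at the mean of 4. On this scale Aldh1a1 separates NT and DRB tumours from DkkMo and combination tumours without overlap, while every other member spans overlapping ranges in all groups.

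In normalised counts, Aldh1a1 was lower in every tumour of a mouse that received DkkMo than in every tumour of a mouse that did not. Its counts were 1995, 5019, 1602 and 3684 in NT tumours and 692, 456, 494 and 658 in DkkMo tumours. In DRB tumours they were 4847, 12803, 2867 and 13643, and in combination tumours 460.4, 374, 526 and 323. The DkkMo groups also varied less, with coefficients of variation of 20.4% and 21.4%, beside 51.4% in NT and 64.1% in DRB tumours. The median gene varied less there too, by 79.2% in DkkMo and 72.2% in combination tumours, beside 109% in NT and 96.1% in DRB tumours.

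Between combination and DRB tumours the mean of Aldh1a1 differed 20.3 times. The limma difference was -3.70 ± 0.62 (SE), adjusted p = 0.0018, and an exact two-sided permutation test of 4 against 4 gave p = 0.0286, the smallest it allows, or 0.0571 after adjustment over the 4 tumour comparisons. In this comparison 926 of 12595 genes passed (7.35%), 54 higher (0.429%) and 872 lower (6.92%), Aldh1a1 among the latter. Without overlap between the groups, 18.3% of genes lay lower and 2.07% higher. The median difference over all genes was -0.71, and with each library centred on its median Aldh1a1 was -2.66 (adjusted p = 0.042) with 173 higher and 298 lower among all genes, and with quantile normalisation -2.75 (adjusted p = 0.029) with 285 higher and 440 lower. With voom on the recovered reads the difference was -4.06 with an adjusted p of 0.056, and no gene was called, while 2647 genes had an unadjusted p under 0.05.

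Between DkkMo and NT tumours the mean differed 5.35 times, with a limma difference of -2.05 ± 0.62 (SE), an unadjusted p of 0.0035 and an adjusted p of 0.27. Over 7 other settings the limma difference ran from -2.44 to -1.39, with adjusted p from 0.18 to 0.67. The exact permutation p was again 0.0286, or 0.0571 adjusted. No gene passed in this comparison by limma (0.0% of 12595) or by voom, 1554 genes (12.3%) had an unadjusted p under 0.05, and 3.22% lay lower and 1.82% higher without overlap. The median difference over all genes was -0.54.

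DRB tumours had 2.78 times the mean of NT tumours, with overlapping libraries (1.09% of genes lay lower and 2.98% higher without overlap), a limma difference of 1.30 ± 0.62 (SE, adjusted p = 0.42) beside a median of 0.28 over all genes, and an exact permutation p of 0.143. Combination tumours had 0.731 times the mean of DkkMo tumours (-0.36 ± 0.62, adjusted p = 1, exact permutation p = 0.143). The interaction of DkkMo with DRB was -1.65 ± 0.88 (adjusted p = 0.74) by limma. In these 3 comparisons no gene was called by limma or voom (0.0% of genes), while 1500, 150 and 853 genes, in the order given, had an unadjusted p under 0.05.

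**Figure D4:**
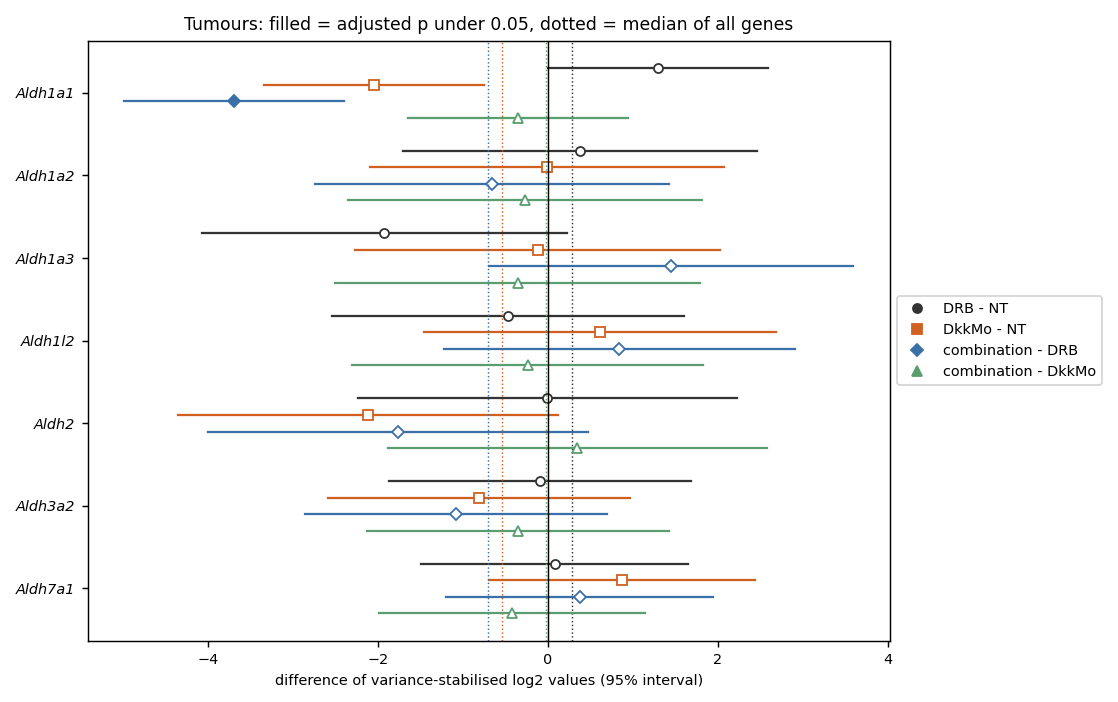
Difference of the deposited log2 values (x axis) with its 95% interval for the 7 members (y axis) in 4 tumour comparisons, first group minus second. The filled symbol, Aldh1a1 in combination minus DRB at -3.70, is the 1 call among the members, and dotted lines give the median of all genes for each comparison (0.28, -0.54, -0.71 and -0.03).

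None of the other 6 members passed in any tumour comparison, and their libraries overlapped in each. Aldh2 came closest to the pattern of Aldh1a1. Its counts were 31.7, 327, 3584 and 725 in NT and 2330.1, 51.3, 335 and 919.9 in DRB tumours. They were 230.5, 163, 0 and 0 in DkkMo and 206, 26.1, 323 and 0 in combination tumours, with 3 libraries without a read. The limma differences of Aldh2 were -2.12 ± 1.07 (SE, adjusted p = 0.42) for DkkMo against NT and -1.76 ± 1.07 (adjusted p = 0.3) for the combination against DRB.

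Aldh1a2 and Aldh1a3, the other retinaldehyde dehydrogenases, passed no tumour comparison. Aldh1a3 counts were 585, 1888, 1300.0 and 2399.7 in NT and 1170.3, 2003, 521 and 1929 in DkkMo tumours. In DRB tumours they ran from 10.6 to 4027, in the order 4027, 11.1, 384 and 10.6. In combination tumours they were 644, 304, 808 and 4246. The 95% interval of the difference between combination and DRB reached from -0.70 to 3.60. Aldh1a2 ran from 8.21 to 1596 in NT tumours alone, and its interval for the same comparison was -2.74 to 1.42. Neither interval excludes a fold of 2 in at least 1 direction.

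Aldh1l2 varied 155-fold between NT tumours and 1.32-fold between DkkMo tumours, which held 1942, 2293, 1946 and 2566 counts. Aldh7a1 ran from 448 to 7375 over all 16 tumours, and its highest library was a DkkMo tumour. Aldh3a2 stood at 586, 39.2, 526 and 218 in NT and 99.5, 192, 5.50 and 31.4 in combination tumours. For these 3 genes the intervals between DkkMo and NT were -1.46 to 2.68 for Aldh1l2, -0.70 to 2.44 for Aldh7a1 and -2.59 to 0.96 for Aldh3a2.

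In bulk tumour tissue, fewer cells of a type and less RNA per cell cannot be told apart. The libraries with low Aldh1a1 also differed in other ways. Depth was 85.3 to 106 M reads in DRB and 28.3 to 41.1 M reads in combination tumours, and 53.8 to 125 M reads in NT and 26.9 to 52.1 M reads in DkkMo tumours. Of the marker lists, that of macrophages (3 of 6 with a value) summed to 5941 to 15679.5 normalised counts in DRB and 1851 to 4772 in combination tumours, and to 3432 to 16553 in NT and 3478 to 6519.9 in DkkMo tumours. All 3 had a difference below 0 in both comparisons, none called, with medians of -1.27 and -0.75 beside -0.71 and -0.54 over all genes. The endothelial list (5 of 5) summed to 13610.4 to 91333 in DRB and 5589 to 11399.9 in combination tumours, and to 6022 to 191469 in NT and 6539.6 to 9268 in DkkMo tumours, where the high end of NT is replicate 4 alone and the others ran from 6022 to 11427. Between combination and DRB 4 of the 5 differences were below 0, with a median of -1.38, and between DkkMo and NT 2 of 5, with a median of 0.03, none called. The osteoblast list (8 of 10) reached from 115836 to 1633490.0 in DRB and from 24562 to 114134 in combination tumours, and from 26774 to 3479980.0 in NT and 29655 to 81735 in DkkMo tumours. The high ends of NT and DRB were replicates 4 and 1, and the other libraries ran from 26774 to 149926 and from 115836 to 375334. Between combination and DRB 4 of the 8 differences were below 0 and 4 above, and between DkkMo and NT 5 below and 3 above, with medians of 0.00 and -0.20 and none called. Skeletal muscle, with Myl1 alone of 8 markers, went the other way, from 819 to 2502 in DRB and 5407 to 12771 in combination tumours, and Myl1 was called higher there (2.40), while its 1.94 between DkkMo and NT was not called. Of the chondrocyte list (3 of 6), Acan was called lower in combination than in DRB tumours (-2.65, adjusted p = 0.036, limma). Sox9 (-1.11) and Col2a1 (0.29) were not called there. Between DkkMo and NT the values of Acan, Sox9 and Col2a1 were -0.21, -2.09 and -0.66, none called. No measured erythroid, adipocyte, T cell or neutrophil marker was called in either comparison. No measured marker was at 0 in all libraries of a group, and Cd68, Lyz2 and C1qa had no value. The part of these differences in the result for Aldh1a1 was not tested.

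Reads of Aldh1a7 were fewer than those of Aldh1a1 in every tumour. Aldh1a7 had a value in the tumours and none in the cultures, and its reads were 0.283% to 15.6% of those of Aldh1a1 in the same library. The highest percentages, 14.7% and 15.6%, were in DRB replicate 3 and DkkMo replicate 1. Reads over the stretches that the pair shares could have been counted to either gene, since the handling of reads that map to several places is not stated.

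The make-up of the 5 members with a value in both sets differed between cells in culture and tumours. Over these 5, each library's levels per kilobase were set to sum to 100%, which removes the scaling of the libraries. Aldh3a1, the most abundant member in the cultures, and Aldh9a1 have no value in the tumours and are not in this sum. Aldh1a2 and Aldh1a3, without a value in the cultures, are not in it either, so the shares are not those of the whole family. Aldh1a1 held 0.0152% to 0.233% of that sum in the 18 cultures and 5.57% to 85.6% in the 16 tumours. Aldh2 held 55.3% to 78.6% in the cultures and 0% to 27.6% in the tumours. Aldh1l2 held 24.2% to 25.3% on average in the log phase groups and 8.96% to 16.7% in the stressed groups. Between tumour groups the mean share of Aldh1a1 was 47.1% ± 23.3 (SD, n = 4) in NT, 62.4% ± 21.2 in DRB, 13.8% ± 6.93 in DkkMo and 11.5% ± 2.84 in combination tumours. Single NT tumours ran from 12.8% to 64.6% and DkkMo tumours from 5.57% to 20.6%, which overlap. DRB tumours, at 36.9% to 85.6%, and combination tumours, at 7.51% to 14.1%, did not overlap. The mean share of Aldh7a1 was 17.0% ± 9.63, 11.5% ± 7.07, 47.2% ± 21.9 and 45.5% ± 25.0 in the same order of groups. The tumours contain host cells and were fixed before extraction, whereas cultured cells were frozen, so tissue and preparation cannot be told apart in this difference.

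**Figure D5:**
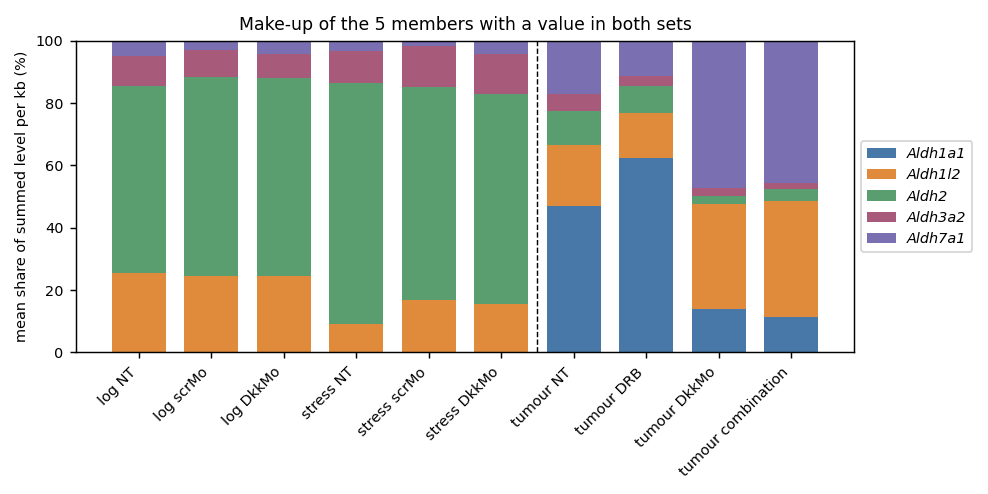
Mean share (y axis, %, from 0) of each of 5 members in their summed level per kilobase, for the 6 culture groups (left of the dashed line) and the 4 tumour groups. Aldh3a1, the most abundant member in the cultures, has no value in the tumours and is not included. Aldh2 fills most of each culture bar, and Aldh1a1, too small to see in the cultures, holds 47.1% and 62.4% in NT and DRB tumours and 13.8% and 11.5% in DkkMo and combination tumours.

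Of the other aldehyde dehydrogenases, 8 of 11 had a value in the cultures. Between DkkMo and scrMo 2 of 8 passed in each condition, 1 higher and 1 lower, where 23.5% of all genes passed in log phase and 20.9% under stress. In log phase these were Aldh3b1 (0.45 ± 0.06 (SE), adjusted p = 6.6e-05, limma) and Aldh4a1, of proline breakdown (-0.15 ± 0.05 (SE), adjusted p = 0.035), and under stress Aldh8a1 (0.19 ± 0.06 (SE), adjusted p = 0.018) and Aldh18a1, of proline synthesis (-0.51 ± 0.08 (SE), adjusted p = 1.4e-04). The call of Aldh4a1 was lost in 4 of 6 fits that left out 1 library, DkkMo replicates 1 and 2 and scrMo replicates 2 and 3 (adjusted p 0.076 to 0.15), and that of Aldh8a1 in 3 of 6, DkkMo replicates 2 and 3 and scrMo replicate 2 (adjusted p 0.063 to 0.11). Under stress 7 of 8 were called in NT cultures, 4 higher and 3 lower, and 5 of 8 in each of scrMo and DkkMo cultures, 3 higher and 2 lower, where 65.6%, 58.8% and 65.6% of all genes were called. Aldh18a1 fell most in NT cultures (-0.75 ± 0.08 (SE), adjusted p = 1.0e-07). In the tumours 7 of 11 had a value and none passed in any comparison by limma.

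The genes that supply, bind and break down retinoids, the substrate side of Aldh1a1, showed no common direction in the cultures. Of 15 listed, 9 had a value. Between DkkMo and scrMo in log phase 3 were higher and 2 lower, where 14.3% and 9.2% of all genes were, and under stress none was higher and 1 lower (9.97% and 10.9%), Dhrs3, a retinaldehyde reductase (-0.38 ± 0.07 (SE), adjusted p = 4.5e-04, limma). The median differences were 0.04 in both conditions, beside 0.00 over all genes. Of 16 retinoic acid receptors and targets 11 had a value, and between DkkMo and scrMo 1 was higher and 3 lower in log phase and none higher and 3 lower under stress, beside the same shares of all genes. In log phase these were Rarb (0.33 ± 0.07 (SE), adjusted p = 0.002), Cyp26b1, which degrades retinoic acid (-0.42 ± 0.09 (SE), adjusted p = 0.0025), Dhrs3 (-0.28 ± 0.07 (SE), adjusted p = 0.0041) and Rxrb (-0.26 ± 0.07 (SE), adjusted p = 0.0069), and Cyp26b1 and Dhrs3 are also in the first list. With a model of the compared groups alone the calls of Cyp26b1, Dhrs3 and Rxrb were lost (adjusted p = 0.07, 0.083 and 0.12), and that of Rxrb also without DkkMo replicate 2 (0.052). Against NT in log phase none of the 11 was higher and 4 were lower, beside 5.36% and 4.46% of all genes. Over fits that left out 1 library, Rarb with DkkMo lay below NT, at -0.64 to -0.50, and with scrMo at -0.92 to -0.83. Dhrs3 with DkkMo lay below NT too, at -0.87 to -0.75. In the tumours Dhrs3 was lower in combination than in DRB (-3.92 ± 0.97 (SE), adjusted p = 0.022), the 1 call among the 6 measured genes of the first list and the 9 of the second, where 6.92% of all genes were lower. It was lost in 4 of 8 fits that left out 1 library, DRB replicate 1 and combination replicates 2, 3 and 4 (adjusted p 0.052 to 0.081), and with voom (adjusted p = 0.091) and median centring (-2.88, adjusted p = 0.0504).

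The folate one-carbon enzymes, among which Aldh1l2 acts, were called lower more often than higher under stress. Of 15 listed, 14 had a value, and 7, 8 and 7 were lower and 5, 2 and 3 higher in NT, scrMo and DkkMo cultures. Over all genes 34.1%, 30.8% and 35.2% were called lower and 31.5%, 28.0% and 30.4% higher. Tyms, thymidylate synthase, was lower in each (-1.04 ± 0.07 (SE), adjusted p = 3.1e-10 in NT, limma), and Shmt1, the cytosolic serine hydroxymethyltransferase, was higher in NT (0.69 ± 0.07 (SE), adjusted p = 2.4e-08) and DkkMo cultures (1.01 ± 0.07 (SE), adjusted p = 1.3e-10). The median of the list was -0.13, -0.46 and -0.35, beside -0.01 over all genes. Between DkkMo and scrMo 1 was higher and 3 lower in log phase, beside 14.3% and 9.2% of all genes. Under stress 3 were higher and 1 lower, beside 9.97% and 10.9%, with Shmt1 the largest rise (0.96 ± 0.07 (SE), adjusted p = 9.3e-09, limma). Between DkkMo and NT 2 were higher and none lower in log phase, beside 5.36% and 4.46% of all genes. Under stress 2 were higher and 7 lower, beside 19.0% and 22.7%. Stressed Shmt1 with DkkMo lay at 0.42 to 0.52 against NT over fits that left out 1 library, and with scrMo at -0.54 to -0.47. In the tumours 9 had a value, and Slc25a32, the mitochondrial folate carrier, was lower in combination than in DRB tumours (-2.89 ± 0.83 (SE), adjusted p = 0.041, limma), where 6.92% of all genes were lower. Its call was lost in 7 of 8 fits that left out 1 library, all but DRB replicate 3 (adjusted p 0.053 to 0.11), with voom (adjusted p = 0.092), on the log2 of the normalised count plus 1 (0.053), with median centring (-1.85, adjusted p = 0.15) and with quantile normalisation (0.098).

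Alcohol dehydrogenases and carbonyl reductases, which make or reduce the aldehydes that the family oxidises, had 17 of 20 genes with a value in the cultures. Under stress 11 were lower and none higher in NT cultures, 8 lower and 5 higher in scrMo and 11 lower and 4 higher in DkkMo cultures, where 34.1%, 30.8% and 35.2% of all genes were lower and 31.5%, 28.0% and 30.4% higher. Cbr2 fell most in each (-2.69 ± 0.20 (SE), adjusted p = 5.4e-10 in NT, limma). Between DkkMo and scrMo in log phase 5 were higher and 1 lower, led by Cbr2 (2.18 ± 0.20 (SE), adjusted p = 6.6e-07) and Akr1c14 (1.04 ± 0.14 (SE), adjusted p = 3.5e-05), and under stress 2 were higher and 3 lower, beside 14.3% and 9.2% of all genes in log phase and 9.97% and 10.9% under stress. Between DkkMo and NT 5 were higher and none lower in log phase, beside 5.36% and 4.46% of all genes. Under stress 8 were higher and 1 lower, beside 19.0% and 22.7%. In the tumours 6 had a value and none passed.

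The aryl hydrocarbon receptor list, the battery to which Aldh3a1 is counted in liver, had 7 of 8 genes with a value in the cultures, Aldh3a1 not included. In log phase, where Aldh3a1 was lower with DkkMo than with scrMo, 4 of the 7 were higher and 1 lower, beside 14.3% and 9.2% of all genes, with Ugt1a6a at 0.78 ± 0.07 (SE), adjusted p = 6.6e-07, Nqo1 at 0.56 ± 0.10 (SE), adjusted p = 3.4e-04, Cyp1b1 at 0.55 ± 0.10 (SE), adjusted p = 3.7e-04 and Cyp1a1 at -0.18 ± 0.05 (SE), adjusted p = 0.019 by limma. The call of Cyp1a1 was lost without DkkMo replicate 2 (adjusted p = 0.066) or scrMo replicate 2 (0.11), with the replicate block (0.057) and with a model of the compared groups alone (0.072). Under stress 3 were higher and 1 lower, Nqo1 (-0.76 ± 0.10 (SE), adjusted p = 2.0e-05), beside 9.97% and 10.9%. Against NT, 1 was higher and 1 lower in log phase (5.36% and 4.46% of all genes). Under stress 2 were higher and none lower (19.0% and 22.7%). Over fits that left out 1 library, log phase Ugt1a6a with DkkMo lay at -0.59 to -0.47 against NT, and with scrMo at -1.36 to -1.25. Stressed Nqo1 lay at 0.39 to 0.49 with DkkMo and 1.14 to 1.24 with scrMo. For both genes the sign against NT was opposite to that against scrMo. Under stress against log phase in NT cultures, where Aldh3a1 rose, all 7 were called, beside 65.6% of all genes, with a list median of 0.26. The 4 higher were Arnt (0.26 ± 0.06 (SE), adjusted p = 7.0e-04), Cyp1a1 (0.29 ± 0.05 (SE), adjusted p = 1.0e-04), Ahr (0.30 ± 0.09 (SE), adjusted p = 0.0072) and Tiparp (0.42 ± 0.10 (SE), adjusted p = 9.4e-04), and the 3 lower were Nqo1 (-1.95 ± 0.10 (SE), adjusted p = 2.4e-12), Ugt1a6a (-1.18 ± 0.07 (SE), adjusted p = 2.6e-11) and Cyp1b1 (-0.83 ± 0.10 (SE), adjusted p = 3.2e-07), by limma. In the tumours 6 had a value and none passed.

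Over the 18 cultures, the genes whose deposited values correlated best with those of Aldh1a1 were Cth (Pearson r = 0.93), Mtrr (0.89), Glrx2 (0.88), Gnl2 (0.87) and Gm11100 (0.86). Over the 16 tumours they were Ccdc169 (0.89), Trub1 (0.88), 6720468P15Rik (0.88), Gm41836 (0.88) and Clmn (0.87). The closest of the 10 members was Aldh9a1 in the cultures (0.37, place 2170 of 16561 genes) and Aldh2 in the tumours (0.47, place 3391 of 12594). Among the other aldehyde dehydrogenases Aldh18a1 reached 0.56 in the cultures (place 501), and Aldh1a7 0.63 (place 1273) and Aldh4a1 0.55 (place 2266) in the tumours. These correlations are descriptions over libraries that share groups and differ in depth.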

How the data were processed

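Oligo(dT)-selected mRNA was sequenced from 18 cultures and 16 fixed tumours. Per the labels, HISAT2 2.1.0, SAMtools 1.9, featureCounts of Subread 2.0.0, StringTie and GRCm38 were used, and strandedness and the handling of multiply mapped reads are not given in the sources used here. The authors deposited variance-stabilised log2 values from DESeq2, in 1 table for the cultures and 1 for the tumours, normalised apart, and no test crosses them. The transformation compresses differences of genes with few reads.

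Inverting it gave whole reads within 0.02 for 100% of the culture values and at least 99.98% of the tumour values that were checked. The check covered the lower counts alone. Normalised counts were taken from all inverted values. Of 16576 culture rows, 14 were set aside for a span above 6 within a group. Groups were compared on the deposited log2 values with limma 3.58.1 in R 4.3.3, with all libraries of a table in 1 model, an empirical Bayes trend and Benjamini-Hochberg adjustment over all genes, at an adjusted p under 0.05. Single tumour comparisons of Aldh1a1 used an exact permutation test. Code was tested on simulated data. Alternatives were no filter, genes above the median mean, the log2 of the normalised count plus 1, voom on the recovered reads, median centring, quantile normalisation, a model of the compared groups, a replicate block, the longest transcript and leaving out each library. Of value columns, 0 were unmapped.

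The members and lists were chosen with earlier results of these data known. The text names all members, per list and comparison at most the 3 largest rises and 3 largest falls past the threshold, and the 5 genes most correlated with Aldh1a1 in each table.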

Additional observations from a re-analysis of the deposited data

Results flagged for a closer look

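Aldh7a1 and Aldh3a1 are listed because the difference between DkkMo and scrMo cultures was itself tested between stress and log phase and passed. For Aldh7a1 this interaction was 0.35 ± 0.08 (SE) on the log2 scale, with an adjusted p of 0.0042 by limma. DkkMo exceeded scrMo by 0.36 in log phase and by 0.71 under stress, and the interaction lay between 0.30 and 0.41 and passed with each of the 12 libraries left out. Mean Aldh7a1 with DkkMo was 0.997 times that of NT in log phase and 1.01 times under stress. With scrMo it was 0.72 and 0.476 times that of NT, so the difference lay between the control morpholino and the other 2 treatments. For Aldh3a1 the interaction was 0.40 ± 0.14 (SE), with an adjusted p of 0.048 by limma, from -0.80 in log phase and -0.40 under stress. It ranged from 0.32 to 0.49 and failed the threshold in 10 of 12 cases, passing without log phase DkkMo replicate 1 and without log phase scrMo replicate 3. Over all genes 22.2% passed this interaction. Among 28 groups of 4 tumours, 1 for each member and group, no library stood apart by Dixon's 95% critical value of 0.829.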

How the results depend on the processing

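Of 714 values of single members under alternatives, 666 kept direction and side of the threshold, 40 no longer passed, 6 newly passed and 2 reversed. The reversals were Aldh1a1 under stress, 0.043 in NT and 0.054 in DkkMo cultures with each library centred on its median. Of 226 counts of members called, 209 stayed within 1.5 times. The filter asked for a value above the lowest in at least 3 culture or 4 tumour libraries, and it removed no gene. The alternative without it therefore repeats the main fit, and its values and counts are among those kept in both tallies. Between scrMo and NT in log phase the count was 1 with a model of the compared groups alone and 1 with the replicate block, beside 2. Between DkkMo and scrMo under stress it was 3 with median centring, beside 5, and between DkkMo and NT in log phase 1 among genes above the median mean, beside 2, since that filter removes Aldh1a1. Between combination and DRB tumours it was 0 with voom, beside 1. The cause of the others was not tested.

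Leaving out 1 library gave counts of 5 to 6, 5 to 7 and 6 for stress in NT, scrMo and DkkMo cultures, of 2 to 3 and 5 to 6 for scrMo against NT in log phase and under stress, of 3 to 4 in both conditions for DkkMo against scrMo, of 2 to 3 and 4 for DkkMo against NT, and of 1 to 2 for the interaction. In the tumours it gave 1 for combination against DRB and 0 in the other comparisons.

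Whether replicate numbers pair the cultures is not known. The main fits were left unpaired, since correlations of same-numbered deviations were not above 0.1 in every pair (lowest -0.06). Between DkkMo and scrMo in log phase these correlations ran from -0.05 to 0.62, with a mean of 0.38 beside -0.18 for different numbers. Pairing was not settled there, and the block called 3046 genes in that comparison, beside 3890. With the block the counts were 5 and 6 for stress in scrMo and DkkMo cultures (6 and 6 without), 4 and 7 for DkkMo against scrMo in log phase and under stress (4 and 5), 2 for DkkMo against NT in log phase (2) and 2 for the interaction (2). For the comparisons with stressed NT cultures and for the tumours, no paired analysis was possible because 2 stressed NT libraries share a number and tumour numbers name different mice. Of 70 levels per kilobase, 47 moved by more than 1 SD with the longest transcript.

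Over all genes, combination against DRB called 1636 with a model of these groups alone and 522 among genes above the median mean, beside 926. A model of the compared groups alone called 2830 for scrMo against NT in log phase, beside 4365, 1109 and 5648 for DkkMo against scrMo in log phase and under stress, beside 3890 and 3464, and 787 for DkkMo against NT in log phase, beside 1625. With the block, scrMo against NT in log phase called 2620, stressed DkkMo against scrMo 5427 and DkkMo against NT in log phase 963. Depth limits Aldh1a1 in the cultures, at 2 to 38 reads.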
